A study of Homo sapiens and Homo sapiens
Mus musculus and Mus musculus with 9 samples.

Results

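The MHC class I antigen presentation genes were followed here as 9 genes out of 41713 in the deposited table. They were taken by gene symbol, and all 9 had a row. HLA-B (ENSG00000234745), HLA-C (ENSG00000204525), HLA-E (ENSG00000204592) and HLA-F (ENSG00000204642) encode heavy chains, and B2M (ENSG00000166710) encodes the light chain. TAP1 (ENSG00000168394) and TAP2 (ENSG00000204267) encode the peptide transporter, and TAPBP (ENSG00000231925) encodes tapasin. NLRC5 (ENSG00000140853) is a transcriptional activator of class I genes. In the table's GRCh38 coordinates, 7 of the genes lie on chromosome 6, from HLA-F at chr6:29722775-29738528 to TAPBP at chr6:33299694-33314387. B2M lies at chr15:44711487-44718877 and NLRC5 at chr16:56989485-57083531. The table's HLA-B span, chr6:31269491-31357188, runs over HLA-C at chr6:31268749-31272130, whereas GENCODE 44 places HLA-B at chr6:31353872-31367067. The RNA-Seq compared C4-2B cells, a human prostate cancer line of the LNCaP lineage, grown alone (3 libraries) with a direct co-culture of C4-2B and mouse MC3T3-E1 osteoblast-lineage cells at 1 to 30 (3 libraries). Another 3 libraries of MC3T3-E1 alone were not analysed here. The labels give the genotype of every culture as WT, while the study describes its co-cultured C4-2B cells as carrying GFP. All cultures were kept in alpha-MEM with fetal bovine serum. Each group rests on a single line, and nothing in the labels says whether its libraries came from separate cultures.

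MHC class I molecules show peptides made in the cell to CD8 T cells. The proteasome cuts proteins into peptides, TAP1 and TAP2 together pump the peptides into the endoplasmic reticulum, and tapasin holds an empty heavy chain with B2M next to the transporter until a peptide fits. NLRC5 reaches the class I promoters through a complex of RFX, CREB and NF-Y factors bound to a conserved box module, and tumours, prostate tumours among them, often express these genes at a low level.

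The measurement used for each gene was the authors' mean normalised read count over the 6 libraries of both cultures. It was given by each of 3 pipelines that separated human from mouse reads in different ways. Xenome sorted the reads by species before alignment, XenofilteR removed mouse reads after alignment to both genomes, and Kallisto assigned reads to a joint human and mouse transcriptome. A mean over both cultures shows the level of a gene but not its response to co-culture. The authors' columns that compare the cultures were not used, so no comparison between the cultures was made. Levels between genes were compared as mean count per kb, meaning per 1000 bases of merged exons in GENCODE 44. The error given is the counting SD, which a mean of this size carries if the gene has the same level in every library. It covers counting error only, since the mean counts used here carry no spread between replicates.

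The depth behind the means was very uneven. Whole reads solved from the low means gave size factors of 5.93, 5.31, 4.86, 0.427, 0.1448 and 0.109 for the 6 libraries with Xenome, a span of 54.4 times. A single read added 0.0281 to a gene's mean in the deepest library and 1.53 in the shallowest. The solved libraries carry no name and were left without a group. Of 10 prostate epithelial markers, 9 had a row and their levels ranged from 699 to 11002 per kb. KLK3, which encodes PSA, stood at 11002 per kb with Xenome. Leukocyte markers lay between 0.0564 and 3.11 per kb in the 4 of 5 genes with a Xenome value. Of 10 osteoblast and mesenchyme markers, 5 reached a mean count of 50, led by COL1A1 at a mean count of 3384 with Xenome and 4557 with XenofilteR. The COL1A2 mean count was 221.6 with Kallisto and 263.6 with XenofilteR but 44.96 with Xenome. From the deepest to the shallowest library, the solved Xenome reads of COL1A2 were 1, 0, 0, 12, 19 and 12. Those of BGLAP, another marker of this list, were 39, 28, 19, 0, 1 and 0. The part of such osteoblast and mesenchyme reads in the class I values was not tested.

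The class I transcripts spanned a wide range of levels, with the light chain at the top and the activator at the bottom. With Xenome, B2M had 2260.4 ± 19.6 per kb (counting SD), the 97.4th percentile of the 28196 genes whose mean count was 1 or more. HLA-C, a classical heavy chain, had 1473 ± 17.6 per kb and stood at the 95.5th percentile. B2M was 1.54 times HLA-C per kb of merged exons, and the length matters here, since per kb of the MANE Select transcript they had 7481 and 2394. HLA-B, the other classical heavy chain among the members, had 124 ± 3.76 per kb and stood at the 66.5th percentile. HLA-E, the ligand of the inhibitory NKG2A receptor on NK cells, lay between them at 292 ± 7.26 per kb, the 77.9th percentile. HLA-F, a nonclassical heavy chain, had 8.53 ± 1.02 per kb and stood at the 33.2nd percentile. Per kb of merged exons, the heavy chains thus differed from each other far beyond their counting errors. This depended on the length for HLA-B and HLA-E, which had 372.0 and 334.3 per kb of the MANE Select transcript, in the reverse order. The reads were also matched to reference alleles, which need not be those of C4-2B. Any reads lost in that way are not covered by the counting SDs, and their part in these differences was not tested.

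The peptide-loading genes lay inside that range. TAPBP had 626 ± 7.05 per kb, TAP1 163 ± 4.26 per kb and TAP2 67.7 ± 1.86 per kb with Xenome. Both transporter subunits were below tapasin. NLRC5 had 6.66 ± 0.533 per kb, the 29.8th percentile and the lowest of the 9 genes. HLA-F and NLRC5 differed by 1.87 per kb, and their counting SDs were 1.02 and 0.533 per kb, so this pair was not clearly separated with Xenome and merged exons. With Kallisto they stood at 34.1 and 7.16 per kb, and per kb of the longest transcript at 23.8 and 12.1. Each of the other 7 neighbouring pairs differed by more than 6 counting SDs.

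The median member stood at 163 per kb, and the median of all 28196 ranked genes was 29.7 per kb. Among the 15647 protein-coding genes, the median member moved from the 69.9th to the 51.3rd percentile. The order from B2M down to HLA-E was the same in each pipeline. TAP2 ranked below HLA-B with Xenome and XenofilteR but above it with Kallisto, at 159 against 128 per kb. The length used also mattered. Per kb of the MANE Select transcript, a single reference transcript chosen after the values had been seen, HLA-B had 372.0 per kb and came ahead of HLA-E at 334.3 and TAP1 at 287 per kb.

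**Figure D1:**
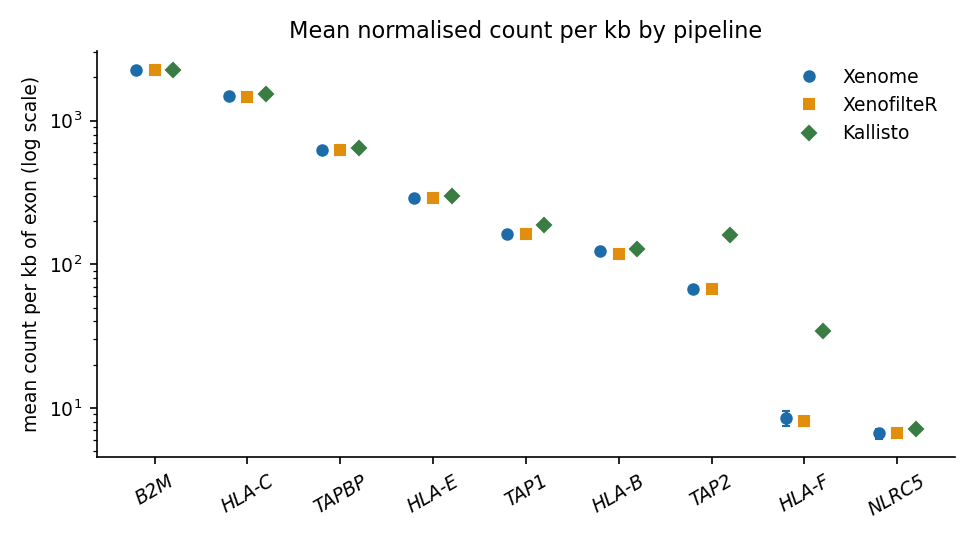
Mean normalised count per kb of merged exons (log scale) of the 9 genes with each pipeline, ordered by the Xenome value; bars on the Xenome points are counting SDs. B2M led at 2260.4 and NLRC5 was lowest at 6.66, and the Kallisto points of TAP2 and HLA-F sit well above the others.

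Upstream regions were looked at next, because the class I genes share a promoter module that NLRC5 acts through and yet their levels differed this widely. RefSeq promoter windows on GRCh38.p14, from 250 bases before to 50 after a start site, were found for 7 of the 9 members (8 windows, with 2 for TAP1). HLA-E and NLRC5 had no entry. The 250 upstream bases of the 3 class I heavy chain promoters and of B2M read as follows, 5′ to 3′ on the gene's strand. Capitals mark the X2 box core TGACG, the Y box core ATTGG, the interferon response letters GAAANNGAA and the NF-kB letters GGGGATTCC, each on either strand.
B2M, chr15:44711267-44711516, plus strand: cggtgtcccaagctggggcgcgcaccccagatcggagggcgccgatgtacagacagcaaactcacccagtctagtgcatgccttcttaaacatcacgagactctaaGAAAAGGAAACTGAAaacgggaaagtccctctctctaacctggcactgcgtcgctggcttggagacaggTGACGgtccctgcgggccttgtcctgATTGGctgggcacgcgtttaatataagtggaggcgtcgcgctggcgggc
HLA-B, chr6:31357180-31357429, minus strand: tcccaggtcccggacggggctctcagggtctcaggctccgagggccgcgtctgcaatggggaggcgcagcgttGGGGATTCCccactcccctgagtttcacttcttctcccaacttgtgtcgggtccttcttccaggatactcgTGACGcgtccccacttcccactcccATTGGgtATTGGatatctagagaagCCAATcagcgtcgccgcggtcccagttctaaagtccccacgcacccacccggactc
HLA-C, chr6:31272093-31272342, minus strand: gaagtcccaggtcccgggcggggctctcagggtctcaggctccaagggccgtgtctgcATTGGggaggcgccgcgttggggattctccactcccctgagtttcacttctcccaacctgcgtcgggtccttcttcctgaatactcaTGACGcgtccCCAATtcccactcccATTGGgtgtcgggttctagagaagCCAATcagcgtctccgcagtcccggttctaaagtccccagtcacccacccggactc
HLA-F, chr6:29723184-29723433, plus strand: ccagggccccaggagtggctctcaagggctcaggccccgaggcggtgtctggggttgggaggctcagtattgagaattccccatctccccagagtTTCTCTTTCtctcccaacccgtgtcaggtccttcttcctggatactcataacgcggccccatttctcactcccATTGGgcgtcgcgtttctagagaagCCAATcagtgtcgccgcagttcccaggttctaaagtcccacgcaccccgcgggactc

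B2M, HLA-B and HLA-C held TGACG followed on the same strand by ATTGG, with starts 26, 25 and 25 bases apart. A pair of these letters with starts 20 to 30 bases apart was found in 85 of 35116 promoter windows of 300 bases, or 0.242%. HLA-F held ATTGG but not TGACG in its window. Single cores were common, with TGACG in 24.6% and ATTGG in 34.6% of all windows. GGGGATTCC, present in 0.285% of windows, was found in HLA-B alone among the members' windows. Other forms of NF-kB site were not searched, so the other windows may still hold one. GAAANNGAA was found in 5 of the 8 windows, those of B2M, HLA-F, TAP2, TAPBP and the more upstream TAP1 start, against 8.11% of all windows. Only this pattern was searched. HLA-B and HLA-C hold tttcacttc, which the pattern does not match, so a window outside this count may still hold an interferon response element. TAP2 held TGACG but no ATTGG. HLA-C and HLA-B, which both held the pair, had 1473 and 124 per kb of merged exons, or 2394 and 372.0 per kb of the MANE Select transcript. A match of letters is a description of the reference sequence, not a bound site, and the reference alleles need not be those of C4-2B.

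The Kallisto and Xenome means differed most for TAP2 and HLA-F, and less for the other 7 genes. For TAP2, Kallisto gave a mean count of 1649, against 701.4 from Xenome and 702.0 from XenofilteR. For HLA-F, Kallisto gave 147, against 36.8 from Xenome and 35.2 from XenofilteR. The Kallisto to Xenome ratio, on the linear scale, was 2.35 for TAP2 and 3.99 for HLA-F. For the other 7 genes it lay between 1.00 for B2M and 1.147 for TAP1. Over 11593 genes that reached a mean count of 50 in both pipelines the median ratio was 1.02, and 4.77% of them had a higher ratio than TAP2. HLA-F was below that minimum with Xenome, and 2.47% of the 11593 genes had a ratio higher than its own. Of 11670 genes at a Xenome mean count of 50 or more, 9.74% had a Kallisto mean more than 1.5 times the Xenome mean.

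Both genes share exon bases with another gene that the table lists. Of the 5643 bases of the TAP2 MANE Select transcript, 2023 (35.9%) are also exon of ENSG00000250264 on the same strand. That gene had a mean count of 0.103 with Xenome and 44.3 with Kallisto. For HLA-F the shared part was 621 of 1480 bases, with HLA-F-AS1 and the pseudogene ENSG00000225864 on the opposite strand. HLA-F-AS1 had a mean count of 49.7 with Xenome. TAP1 shared 21.5% of its transcript with PSMB8-AS1 and HLA-B shared 23.7% with the pseudogene ENSG00000271581, both on the opposite strand. By the exons of GENCODE 44, B2M, HLA-C, HLA-E, TAPBP and NLRC5 shared none with a listed gene. The table's own HLA-B span runs over HLA-C, and the exons behind that span were not examined. TAPBP shared 40.5% with ENSG00000289100, a GENCODE 44 gene on the opposite strand that the table does not list, at a Kallisto to Xenome ratio of 1.03. Over the genes that reached a mean count of 50 in both pipelines and have a MANE Select transcript, the median log2 ratio of Kallisto to Xenome was 0.01 in the 7390 genes with no shared base and 0.40 in the 617 genes that share 25 to 50%. TAP2 at 1.23 and HLA-F at 2.00 on the same log2 scale lay above the upper quartile of that bin, 0.68. HLA-B and TAP1 fall in the bin of 10 to 25%, where the quartiles were 0.05 and 0.28, and had log2 ratios of 0.06 and 0.20. Whether the authors counted by strand is not given in the sources used here, and the part of the overlaps in these ratios was not tested.

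**Figure D2:**
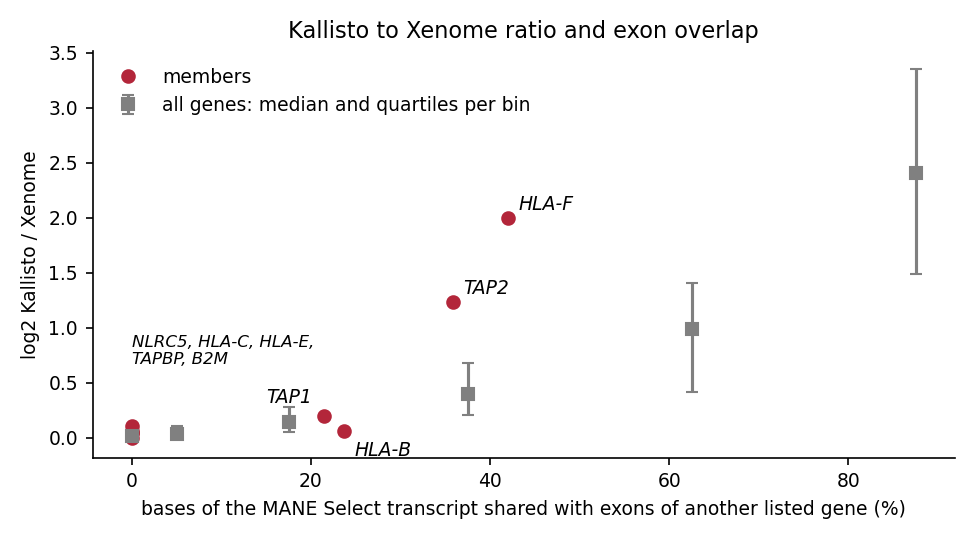
log2 ratio of the Kallisto to the Xenome mean count against the share of the MANE Select transcript's bases that are exon of another listed gene (%); red points are the 9 members and grey squares give the median and quartiles of all genes that reached a mean count of 50, per bin of overlap. TAP2 and HLA-F lie above the quartiles of their bin.

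The mouse-read filters differed by 1% or more for 3 of the 4 heavy chains, all but HLA-E. The XenofilteR mean was below the Xenome mean by 4.42% for HLA-F, 4.12% for HLA-B and 1.00% for HLA-C. The HLA-F value rests largely on 1 read in a shallow library and was 1.44% without that library. The share of the 11593 genes with a lower XenofilteR to Xenome ratio was 0.733% for HLA-F, 0.802% for HLA-B and 5.99% for HLA-C. The HLA-F share is for all 6 libraries, so it rests on the same read. For the other 6 genes the means differed by less than 0.2%, including HLA-E, whose mean count was 851.8 with Xenome and 850.6 with XenofilteR. The filters read the same libraries, so the counting SDs do not apply to these differences, and they were not tested.

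**Figure D3:**
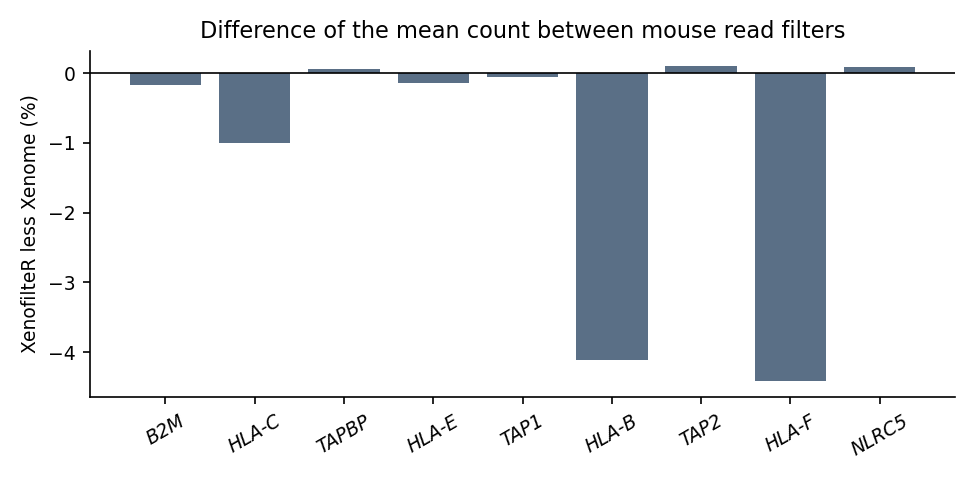
Difference of the XenofilteR from the Xenome mean count in percent of the Xenome mean, for the 9 genes in order of level. HLA-F was lower by 4.42% (1.44% without 1 shallow library), HLA-B by 4.12% and HLA-C by 1.00%, while the other 6 bars are near 0.

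The reads were 50 bases long, so the share of each gene's distinct 50-base words that also occur in mouse transcripts (GENCODE M21) was counted. HLA-E had the largest share, 29 of 2967 words (0.977%), and HLA-F had 25 of 4584 words (0.545%). The other 7 genes shared no 50-base word with mouse. Of protein-coding genes, for which 1 word in 8 was sampled, 69.0% had none among the sampled words. With words of 31 bases, HLA-E shared 2.03%, HLA-C 1.35%, HLA-F 1.15% and HLA-B 0.490%. The part of shared mouse sequence in the differences between the filters was not tested. Of the HLA-F words, 16 occurred in Olfr243, an olfactory receptor gene, 12 in Grik2, 7 in Hoxd11 and 2 in Gm10499. A word can occur in several genes, and most mouse genes that shared HLA-F words lie outside the MHC. Of the HLA-E words, 18 occurred in the mouse class I gene H2-M3, so the 2 shares are not of the same kind. The runs below are the longest in each heavy chain's MANE Select transcript that are identical, on the same strand, to a mouse transcript, searched among the mouse genes that share a 50-base word with any member. All lie in coding exon 4, which encodes the alpha 3 domain that contacts B2M and CD8. Capitals mark the 19 bases that the runs have in common. The mouse partner was H2-M3 for HLA-B, HLA-C and HLA-E, and Gm10499 for HLA-F.
HLA-B, 43 bases, chr6:31355382-31355424, minus strand: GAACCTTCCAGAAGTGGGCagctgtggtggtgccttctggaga
HLA-C, 45 bases, chr6:31270277-31270321, minus strand: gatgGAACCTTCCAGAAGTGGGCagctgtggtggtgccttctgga
HLA-E, 67 bases, chr6:30491296-30491362, plus strand: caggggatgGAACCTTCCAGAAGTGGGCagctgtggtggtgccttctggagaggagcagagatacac
HLA-F, 51 bases, chr6:29725167-29725217, plus strand: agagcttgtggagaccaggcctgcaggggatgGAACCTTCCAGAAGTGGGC

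The members also share sequence with other human genes, which can split reads or leave them uncounted. HLA-B shared 30.5% of its 50-base words, of which 1418 words matched DHFRP2, a pseudogene inside its gene model, and 81 matched HLA-C. TAP2 shared 18.5%, TAPBP 5.72%, HLA-C 5.46%, HLA-E 5.19%, HLA-F 0.982% and TAP1 0.851%. B2M and NLRC5 shared none. The median over protein-coding genes, from the sampled words, was 0.231%. The longest identical run between HLA-C and HLA-E was 75 bases, again in exon 4, and between HLA-B and HLA-C 66 bases, in exon 3. DHFRP2 shares no base with the HLA-B MANE Select transcript and had a mean count of 0.0908 with Xenome. How far shared reads move the levels was not tested.

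HLA-F and NLRC5 were low enough for their reads per library to be solved. With Xenome, HLA-F had 311, 212, 252, 16, 3 and 2 reads from the deepest to the shallowest library, or 52.5, 39.9, 51.8, 37.5, 20.7 and 18.4 normalised reads. The 3 deepest libraries were highest, but the exact 95% Poisson intervals of the 2 shallowest, 4.27 to 60.5 and 2.22 to 66.3 normalised reads, cover the others. The difference between those libraries was not tested. With XenofilteR, HLA-F had 307, 213, 241, 16, 2 and 2 reads. The single read less in the fifth library by depth took 1.14 from the mean, out of a fall of 1.63 between the filters.

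NLRC5 had a single solution with XenofilteR only, at 592, 483, 401, 26, 10 and 10 reads. These gave 99.8, 90.8, 82.3, 61.0, 69.2 and 92.0 normalised reads. The fourth library by depth was lowest, with an interval of 39.8 to 89.4 normalised reads. The deepest library was highest, with an interval of 91.9 to 108 normalised reads. These are the extremes of the 6 libraries, and their difference was not tested. With Xenome, NLRC5 had 2 solutions and no reads are given.

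**Figure D4:**
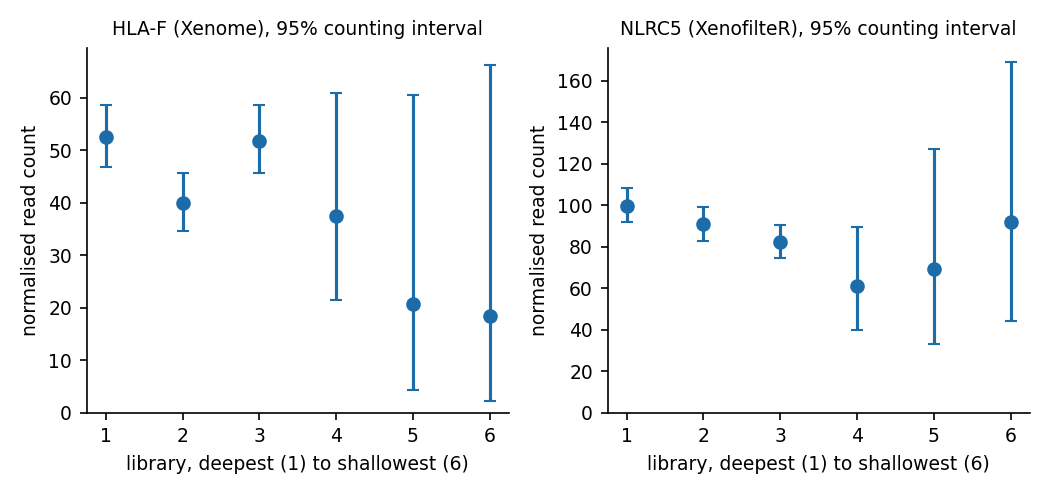
Normalised read count of HLA-F (Xenome) and NLRC5 (XenofilteR) in each of the 6 solved libraries, from the deepest to the shallowest; bars are exact 95% Poisson intervals and cover counting error only. The intervals of the 2 shallowest libraries are wide, reaching from 2.22 to 66.3 for HLA-F.

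The rest of the pathway was present at a mean count of 50 or more in 34 of 39 listed genes with Xenome, as were 8 of the 9 members and 33.9% of the 41713 genes in the table. Their median of 162 per kb was close to the members' median of 163 per kb. Among genes that make the peptides, PSME1, a subunit of the proteasome activator PA28, was highest at 724 per kb. PSMB9, an immunoproteasome subunit, was lowest at 2.64 per kb, below every member. PSME1 had a mean count of 1286.5 with Xenome and 1971 with XenofilteR. The peptide trimmers ranged from the signal peptide peptidase HM13 at 814 per kb to the aminopeptidase ERAP2 at 19.6 per kb.

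The general chaperones exceeded the dedicated one. CALR, which encodes calreticulin, had 18371 per kb against 626 per kb for TAPBP, and TAPBPL, the tapasin relative that edits peptides, was the lowest chaperone at 68.9 per kb. Among the 11 interferon and NF-kB signalling genes, RELA was highest at 680.1 per kb and IRF1, an interferon-induced activator of class I genes, lowest at 7.02 per kb, near NLRC5. The 7 RFX, NF-Y and CREB1 partners that NLRC5 joins at the promoter were each more abundant than NLRC5. RFX5 led that list at 1021 per kb, and its lowest gene was CIITA, the class II counterpart of NLRC5, at 3.37 per kb. MICA, a ligand of the activating NKG2D receptor on NK cells, had 221 per kb and MICB 0.699 per kb. These levels are from Xenome, and 8 of the 39 pathway genes had a Kallisto mean more than 1.5 times the Xenome mean. The share was 9.74% over the 11670 genes at a Xenome mean count of 50 or more, a minimum that 34 of the 39 reached. Of the 8, MICB, RAET1E and RAET1G were below that minimum, so the 8 of 39 and the 9.74% are not for like sets. PSME1, PSMB10, IRF1, IRF9 and CIITA were above it. For MICB the mean count was 39.2 with Kallisto against 1.96 with Xenome, for CIITA 305.8 against 75.9, and for IRF1 165.1 against 86.1. Of the 6 MHC class II genes, 1 reached a mean count of 50 with Xenome, HLA-DMA at 66.5 (49.6 with Kallisto), and HLA-DRA had a mean count of 0.0941. HLA-DRB1 had 0.531 with Xenome and 14.7 with Kallisto.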

How the data were processed

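RNA-Seq libraries (stranded mRNA, 50 bp paired-end) were analysed from the single deposited table. The authors aligned the reads that Xenome kept with HISAT2 to GRCh38, or aligned all reads to GRCh38 and GRCm38 and then removed mouse reads with XenofilteR. Both were counted with featureCounts. In the other pipeline the authors quantified reads with Kallisto on joined human and mouse transcriptomes. The mean used here is another value that the authors deposited for each pipeline, the mean over 6 libraries of counts divided by DESeq2 size factors. The other columns hold the authors' comparison of the cultures (fold changes, standard errors, statistics and p-values) and were not used.

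Of 41734 rows, 21 listed a gene again and were dropped. Lengths and overlaps came from GENCODE 44 for 41538 genes; coordinates of sequences are GRCh38. Reads per library were solved by writing a mean as a sum of whole reads, and each of the 20014 genes with a Xenome mean below 10 had 1 solution. Both scripts were tested on simulated data. For genes outside the members, 1 in 8 words was sampled. All members were named, and of each pathway role the highest and lowest gene. The marker genes named were chosen after their values were seen. The members and lists were chosen with earlier results of these data known. No test was made between cultures. Python with pandas and scipy was used.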

Additional observations from a re-analysis of the deposited data

How the results depend on the processing

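The median over the 9 members was recomputed under each alternative. The median mean count per kb of 163 became 187 with Kallisto, 276.0 per length of the longest transcript and 334.3 per MANE Select transcript, the last chosen after the data were seen. The median percentile of 69.9 became 51.3 among protein-coding genes, 55.7 above a mean count of 10 and 78.3 with no filter. The median Kallisto to Xenome ratio of 1.02, taken relative to the median gene, became 1.04 without that division and 1.06 with XenofilteR in place of Xenome. The median share of words found in mouse rose from 0 to 0.163% at 31 bases and 1.02% at 25 bases, and that in other human genes from 5.19% to 10.7% and 15.9%. With XenofilteR, the level of HLA-B became 119 per kb against 124, and HLA-F had 781 reads in all against 796. No paired analysis was possible because the columns used hold 1 mean over all libraries. A library could be left out only for a gene whose reads were solved, and this was done for HLA-F between the filters, without the fifth library by depth. The mean weights the shallow libraries like the deep ones, which limits the low members most (counting SD 4.41 on a mean of 36.8 for HLA-F).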
